A study of Mus musculus with 3 samples.

Results

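A set of 9 genes of the Notch pathway was followed in type 2 innate lymphoid cells (ILC2s) of the mouse lung. They encode the receptors Notch1 and Notch2, the protease Adam10, the gamma-secretase subunit Ncstn, the DNA-binding factor Rbpj, its coactivator Maml1 and corepressor Spen, the receptor inhibitor Numb and the target Hes1. They were taken by symbol from the deposited expression table, in which all 9 were found among 16129 listed genes. ILC2s lack rearranged antigen receptors and secrete type 2 cytokines in tissues such as lung, gut and skin. They had been sorted by flow cytometry from digested lung of wild type animals treated in vivo with IL-33, an alarmin that activates them. There were 3 libraries of this 1 group, with 19948056, 19883728 and 19976129 estimated reads in replicates 1 to 3. All libraries come from treated animals, so levels are described and no effect of IL-33 is measured. The sources used here give neither the sort antibodies nor the age of the animals, and do not say whether the libraries came from separate animals. The spread between libraries may therefore be technical.

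Notch is a receptor that is cut on the way to the surface by Furin and held there as a heterodimer. A ligand on a neighbouring cell exposes the receptor to Adam10, and gamma-secretase then frees its intracellular part inside the membrane. That fragment enters the nucleus, binds Rbpj and recruits Maml1, which turns Rbpj from a repressor with partners such as Spen into an activator of genes such as Hes1. In lymphocytes the pathway is known for T lineage commitment, and in innate lymphoid cells for supporting ILC2 development from progenitors.

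Rbpj recognises a DNA core with the letters TGGGAA. This core and its reverse complement, TTCCCA, were searched for in the 250 bases before the RefSeq start sites of the 9 genes (GRCm38.p6). Windows were given for 8 of the 9, all but Hes1. Matches lay in 3 of 11 windows, beside 21.6% of all 32851 windows of that length, and belonged to the genes Rbpj and Spen. Both genes are shown because their windows held matches. They encode the DNA-binding factor itself and its corepressor. Lower case is the sequence on the gene's strand, 5′ to 3′, and capitals mark the matches. The Rbpj window is chr5:53590096-53590345 on the plus strand, with TGGGAA beginning 149 bases and TTCCCA 65 bases before the start. This start site is internal, because the annotated gene extends from 53555779 to 53657445. The Spen window is chr4:141538598-141538847 on the minus strand, with TGGGAA beginning 8 bases before the start. That match lies inside the annotated gene, which reaches to 141538644.
Rbpj: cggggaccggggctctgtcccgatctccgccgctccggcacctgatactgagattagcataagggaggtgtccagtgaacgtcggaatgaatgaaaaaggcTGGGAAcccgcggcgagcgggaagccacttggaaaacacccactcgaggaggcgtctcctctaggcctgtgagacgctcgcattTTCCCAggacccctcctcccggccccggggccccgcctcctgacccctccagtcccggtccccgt
Spen: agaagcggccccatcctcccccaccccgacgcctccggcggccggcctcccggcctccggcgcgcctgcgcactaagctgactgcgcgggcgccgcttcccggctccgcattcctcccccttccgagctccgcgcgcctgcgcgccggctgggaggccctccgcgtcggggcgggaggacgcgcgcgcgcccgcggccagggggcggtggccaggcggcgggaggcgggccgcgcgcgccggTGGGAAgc
The Rbpj window holds 2 matches, and 2 or more occur in 2.77% of all windows. The other matching window belongs to a further Rbpj start site, overlaps the first and contains the same TTCCCA. The 8 windows of Notch1, Notch2, Maml1, Adam10, Ncstn and Numb held no match. These letters describe the sequence and do not show that Rbpj was bound there.

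All 9 genes were detected, which means at least 1 TPM (transcript abundance per length, scaled to a fixed total per library) in each of the 3 libraries. That rule was met by 67.3% of all listed genes. Of the 9, Rbpj, Adam10 and Notch2 had a mean of at least 100 TPM, beside 10.3% of all listed genes. The median of the 9 means was 42.6 TPM, against 11.2 TPM over all listed genes. Together they took 0.111%, 0.116% and 0.111% of TPM in replicates 1 to 3. Levels below are the TPM of replicates 1, 2 and 3 in that order, then the mean ± SD (n = 3 libraries).

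**Figure D1:**
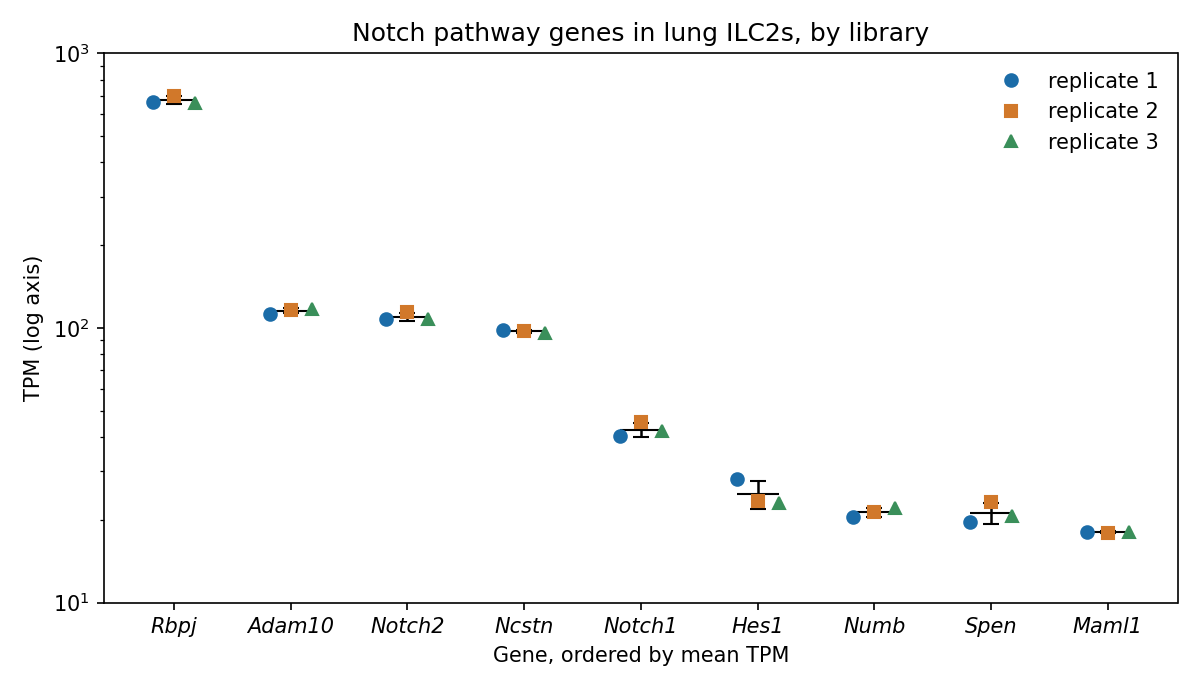
Each point is the TPM of a gene in a library (log axis), and the horizontal bars with whiskers are the mean ± SD of 3 libraries. Rbpj lies near 673 TPM, Adam10, Notch2 and Ncstn lie between 95.7 and 117 TPM, Notch1 lies near 42.6 TPM, and the other 4 genes lie between 17.9 and 28.2 TPM.

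Notch2 was the higher of the receptor genes. Notch2 was at 107, 114 and 108 TPM (110 ± 3.83). Notch1 was at 40.4, 45.3 and 42.2 TPM (42.6 ± 2.50). Every Notch2 library stood above every Notch1 library. Notch1 minus Notch2 was -1.35 ± 0.039 on the log2(TPM + 1) scale, so that Notch2 was 2.54 times as high on that scale, in 3 of 3 libraries. This difference was far larger than the spread between libraries. A two-sided exact permutation test that flips the signs of the library differences (sign-flip test) gave p = 0.25, the smallest that 3 libraries allow, and 0.286 after Benjamini-Hochberg adjustment over 8 gene pairs. In GRCm38.p6 Notch1 (Entrez gene 18128) lies on chromosome 2 from 26457902 to 26503822 and Notch2 (18129) on chromosome 3 from 98013538 to 98150367. The receptor genes Notch3 and Notch4 were close to 0. Notch4 had 7.98, 12 and 3 estimated reads, and Notch3 had 3, 1 and 3. Their means were 0.123 ± 0.070 TPM and 0.030 ± 0.017 TPM.

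Adam10, the protease that makes the ligand-dependent extracellular cut, was at 112, 116 and 117 TPM (115 ± 2.47). The related protease gene Adam17, which can also cut Notch, was at 73.5, 72.1 and 76.6 TPM (74.1 ± 2.27). Adam10 was above Adam17 in every library, and their ranges did not overlap. The difference was 0.63 ± 0.041 on the log2(TPM + 1) scale, or 1.55-fold (p = 0.25 by the same exact test, 0.286 adjusted). Furin, which cuts the receptor before it reaches the surface and has many other substrates, was the highest gene of all the pathway lists at 732 ± 17.5 TPM. Adam10 (11487) lies on chromosome 9 from 70678944 to 70780229.

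Ncstn encodes nicastrin, the gamma-secretase subunit that receives substrates. It was at 98.3, 97.0 and 95.7 TPM (97.0 ± 1.31). Its 3 libraries lay within 1.03-fold of each other. Psenen, which encodes the small subunit PEN-2, was at 179, 186 and 179 TPM (181 ± 3.76). Ncstn minus Psenen was -0.90 ± 0.036 on the log2(TPM + 1) scale, lower in 3 of 3 libraries, so that Psenen was 1.86 times as high (p = 0.25 by the exact sign-flip test, 0.286 adjusted). This direction depends on dividing by length, because in CPM (read counts scaled to the library total, not divided by length) Ncstn was the higher gene, by 1.27 on the log2 scale. The catalytic subunit gene Psen2 stood at 101 ± 2.36 TPM and the scaffold gene Aph1a at 67.9 ± 2.29 TPM. Aph1b passed 1 TPM in 1 library (0.88, 1.22 and 0.86 TPM), and Aph1c stayed below it in all (0.407 ± 0.117 TPM). At least 1 gene was thus detected for each of the 4 kinds of subunit. Ncstn (59287) lies on chromosome 1 from 172066013 to 172082789.

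Rbpj, the DNA-binding factor on which the nuclear steps converge, was the highest of the 9 genes. It was at 661, 699 and 660 TPM (673 ± 22.2), from 30334, 31129 and 29860 estimated reads. By mean TPM it ranked at 195 among the 16129 listed genes, 98.8% of which were lower. It exceeded the next of the 9, Adam10, 5.84-fold. Rbpj minus Notch1 was 3.95 ± 0.043 on the log2(TPM + 1) scale, or 15.5-fold, in 3 of 3 libraries (p = 0.25 by the exact sign-flip test, 0.286 adjusted). Without division by length this ratio was 7.89-fold in CPM. The paralogue Rbpjl, known from pancreas, had 0, 0 and 1 estimated reads, where a count of 0 allows up to 3 reads, or about 0.15 CPM. Rbpj (19664) lies on chromosome 5 from 53555779 to 53657445.

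Maml1, a scaffold that brings acetyltransferases to the Notch and Rbpj complex, was the lowest of the 9. It was at 18.1, 17.9 and 18.1 TPM (18.04 ± 0.147). Its relative Maml2 was at 17.2, 18.4 and 17.8 TPM (17.8 ± 0.630). Their ranges overlapped. Maml1 minus Maml2 was 0.018 ± 0.058 on the log2(TPM + 1) scale, higher in 2 libraries and lower in 1, so no difference beyond the spread was seen (p = 0.75 by the exact sign-flip test, 0.75 adjusted). Maml3 had 2, 0.73 and 1 estimated reads. Among acetyltransferase genes, Kat2a was at 32.2 ± 0.443, Ep300 at 29.5 ± 1.42 and Kat2b at 25.9 ± 1.03 TPM, and Snw1, which encodes the coregulator SKIP, at 110 ± 4.48 TPM. In all, 8 of the 10 genes of the coactivator list were detected, beside 67.3% of all listed genes. Maml1 (103806) lies on chromosome 11 from 50255634 to 50293131.

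Spen, a large corepressor that binds Rbpj when no Notch fragment is present, was at 19.7, 23.3 and 20.6 TPM (21.2 ± 1.88). Replicate 2 was the highest, and its value lay 1.18-fold above the lowest. Ncor1, a nuclear corepressor that many factors share, was at 245, 260 and 255 TPM (253 ± 7.49). Spen minus Ncor1 was -3.52 ± 0.084 on the log2(TPM + 1) scale, lower in 3 of 3 libraries, so that Ncor1 was 11.5 times as high (p = 0.25 by the exact sign-flip test, 0.286 adjusted). All 18 listed corepressor genes were detected, beside 67.3% of all listed genes, and Spen stood at position 12 among the 18. The highest was Tle5 (619 ± 12.6 TPM), a short member of the Groucho family that can oppose the others. Hdac1 (254 ± 3.51), Ctbp1 (220.0 ± 8.10), Tle3 (149 ± 5.30) and Hdac2 (81.6 ± 3.27) followed, with Ncor1 between the deacetylase Hdac1 and Ctbp1. Spen (56381) lies on chromosome 4 from 141467885 to 141538644.

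Numb, an endocytic adaptor that lowers Notch at the surface, was at 20.5, 21.4 and 22.0 TPM (21.3 ± 0.773). Its paralogue Numbl was at 3.50, 3.66 and 4.10 TPM (3.75 ± 0.311). The difference was 2.23 ± 0.051 on the log2(TPM + 1) scale, or 4.70-fold, in 3 of 3 libraries (p = 0.25 by the exact sign-flip test, 0.286 adjusted). Of the 15 genes of receptor endocytosis and turnover 14 were detected, beside 67.3% of all listed genes. Dtx3 (105 ± 4.96), Nedd4 (74.8 ± 1.15), Dtx4 (54.6 ± 2.76), Cdk8 (50.6 ± 1.83), Dtx3l (43.8 ± 0.958) and the ubiquitin ligase gene Itch (42.4 ± 2.21) were the highest, in TPM. The member not detected was Dtx1, which Notch itself induces in T cells, at 4, 5 and 1 estimated reads. Numb (18222) lies on chromosome 12 from 83794034 to 83921942.

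Hes1, a basic helix-loop-helix repressor and the classical Notch target, was at 28.2, 23.4 and 22.9 TPM (24.9 ± 2.93). Replicate 1 was the highest, 1.22 times the mean of the others. The 95% counting intervals (exact Poisson, from rounded estimated reads) were 25.4 to 31.2 TPM in replicate 1, 20.8 to 26.1 in replicate 2 and 20.4 to 25.7 in replicate 3, so they touched. Hey1, a target of the related Hey family, was at 1.42, 1.22 and 1.92 TPM (1.52 ± 0.361), from 25 to 39 estimated reads. Hes1 minus Hey1 was 3.36 ± 0.291 on the log2(TPM + 1) scale, or 10.3-fold, in 3 of 3 libraries (p = 0.25 by the exact sign-flip test, 0.286 adjusted). The ratio was 6.84-fold in CPM, 7.47-fold in FPKM and 15.6-fold with a pseudocount of 0.1. Of 6 listed Hes and Hey genes, 3 were detected, beside 67.3% of all listed genes. Hes6, whose product opposes Hes1, was the highest of the 6 at 32.4 ± 0.437 TPM. Hes2, Hes7 and Heyl were below 1 TPM in all libraries. Hes1 (15205) lies on chromosome 16 from 30065357 to 30067796.

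**Figure D2:**
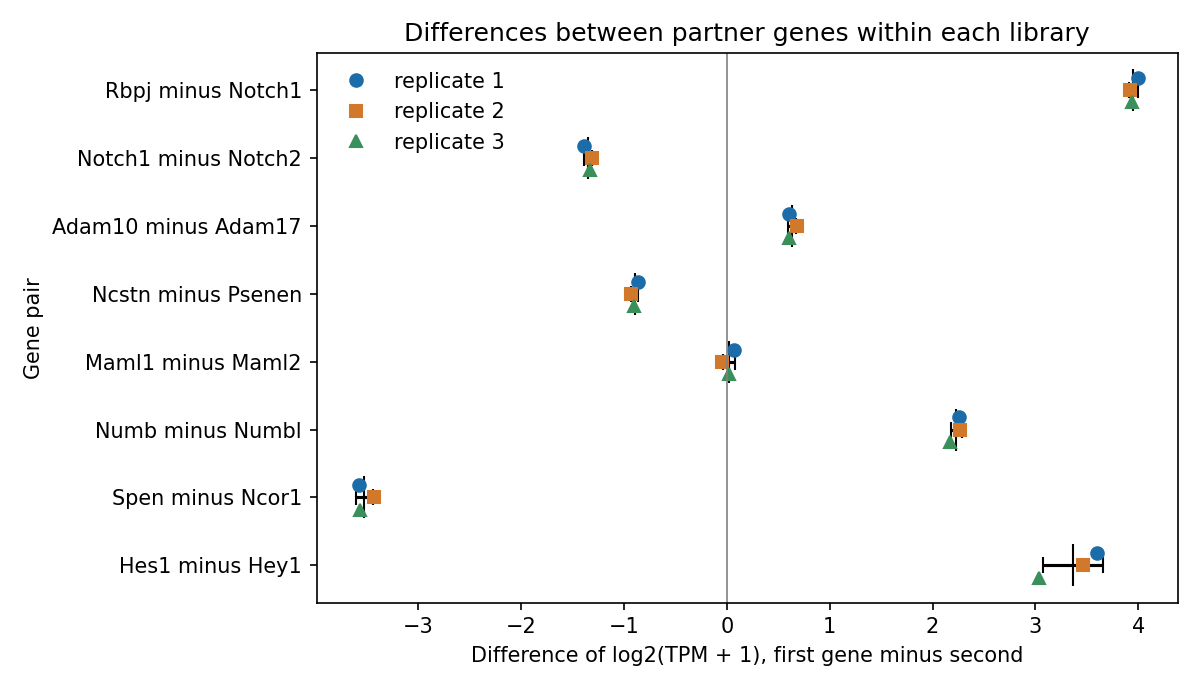
Each point is the difference of log2(TPM + 1) in a library, first gene minus second, and the whiskers are the mean ± SD of 3 libraries. In 7 of the 8 pairs all libraries lie on the same side of 0, while Maml1 minus Maml2 lies at 0.018 ± 0.058 with points on both sides.

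The order of the 9 genes by mean TPM was Rbpj, Adam10, Notch2, Ncstn, Notch1, Hes1, Numb, Spen and Maml1. Of their 36 pairs, 35 had the same order in 3 of 3 libraries, and the ranges of 33 did not overlap. The other 3 pairs overlapped. Adam10 exceeded Notch2 by 0.070 ± 0.050 on the log2 TPM scale, with the same sign in each library. Hes1 exceeded Spen by 0.23 ± 0.264. Numb and Spen differed by 0.011 ± 0.116 and changed places between libraries. Of these 3 differences, the one between Adam10 and Notch2 was larger than its SD. Among neighbours whose ranges did not overlap, Hes1 exceeded Numb by 0.22 ± 0.216, which is about its SD, Spen exceeded Maml1 by 0.23 ± 0.138, and Notch2 exceeded Ncstn by 0.18 ± 0.054. The order also depended on length. In CPM 29 of the 36 pairs kept their order. There Notch2 (550.0) came second, Notch1 (193) passed Ncstn (130.2), Spen (124) stood sixth, Maml1 (47.6) and Numb (35.2) followed, and Hes1 (16.3) came last. The effective length implied by the deposited counts and FPKM was 12209 bases for Spen and 1371 bases for Hes1. For Notch2 and Notch1 it was 10457 and 9441 bases. This length is somewhat shorter than the transcript, as the only coding Hes1 transcript in GENCODE M21 has 1468 bases.

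**Figure D3:**
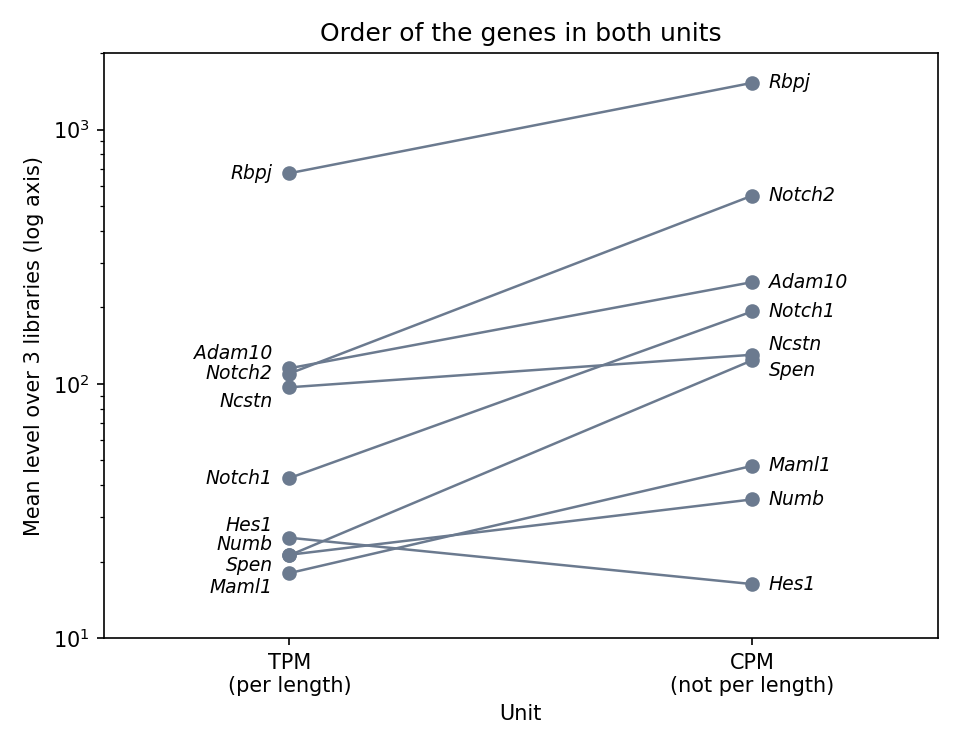
Points are mean levels over 3 libraries on a log axis, in TPM on the left and in CPM on the right, and lines join the same gene. Rbpj is highest in both units, while Hes1 is sixth by TPM (24.9) and last by CPM (16.3).

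The genes differed in how far their libraries lay apart. The coefficient of variation (CV, SD over mean) of TPM ranged from 0.817% for Maml1 to 11.8% for Hes1, with a median of 3.49%. The median was 3.87% over the 8262 listed genes whose mean reached 10 TPM. Hes1 (11.8%), Spen (8.90%) and Notch1 (5.87%) lay above that median. For Hes1, 97.8% of these genes had a lower CV, and for Spen 93.4%. Counting error alone would give 5.54% for Hes1, 2.01% for Spen and 1.61% for Notch1 at their mean number of reads. The most deeply counted gene, Rbpj, had a CV of 3.30% against 0.573% from counting. Ncstn, Numb and Maml1 varied by no more than counting error gives. Rbpj, Notch1, Notch2 and Spen were each highest in replicate 2, Hes1 and Ncstn in replicate 1, and Adam10, Numb and Maml1 in replicate 3.

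**Figure D4:**
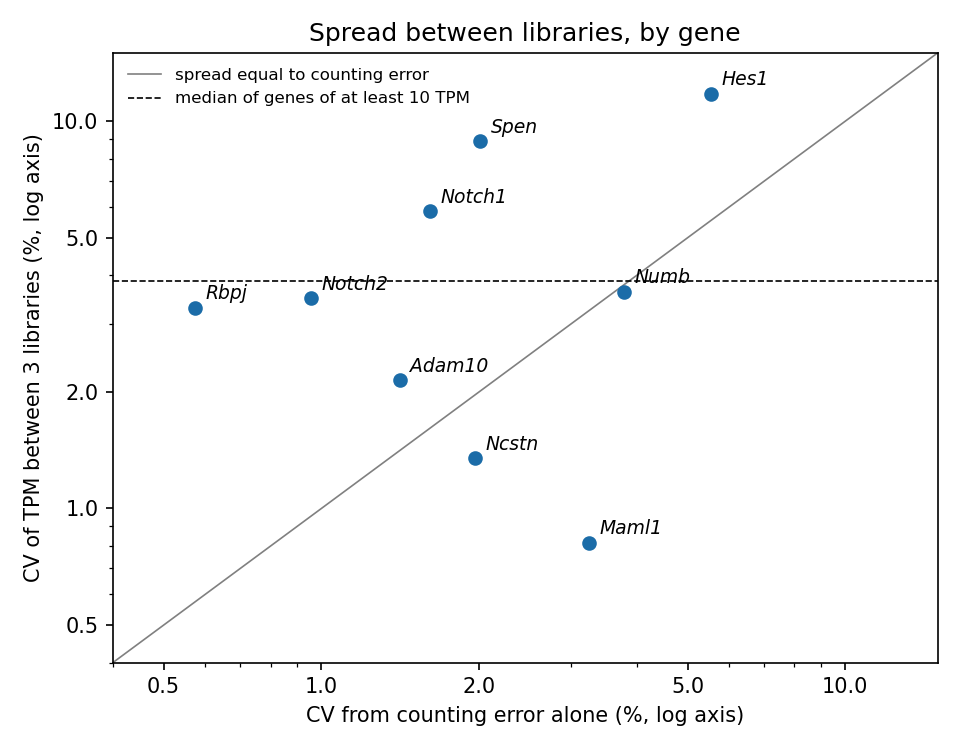
Each point is a gene, with the CV that counting error alone gives on the x axis and the CV of TPM between 3 libraries on the y axis (%, log axes). Hes1 (11.8%), Spen (8.90%) and Notch1 (5.87%) lie above the dashed median of 3.87%, and Ncstn, Numb and Maml1 lie below the diagonal.

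The wider pathway was read from 11 lists ordered by role, which hold 75 further listed genes. Of these, 58 were detected, or 77.3%, beside 67.3% of all listed genes. A mean of at least 100 TPM was reached by 14, or 18.7%, beside 10.3% of all listed genes. Their median was 25.3 TPM.

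Ligand genes were the lowest group, with 1 of 6 listed genes detected, beside 67.3% of all listed genes. That gene was Jag1, at 9.98, 9.52 and 10.4 TPM (9.95 ± 0.421). The others, Jag2, Dlk1, Dll1, Dll3 and Dll4, were below 1 TPM in every library, with Jag2 at 0.467 ± 0.078 TPM. Jag2 and Dlk1 had 17 to 21 and 3 to 8 estimated reads per library. In a bulk sample, few cells with a transcript and a low level in many cells cannot be told apart. Beside Jag1, the 7 endothelial markers summed to 79.8 to 84.2 TPM, of which Pecam1 made up 79.8 ± 2.76. Egfl7 was also detected, at 2.10 ± 0.464 TPM. The defining genes Cdh5, Kdr and Tek were below 0.3 TPM in each library, and Vwf and Emcn were below 1 TPM. The 7 epithelial markers summed to 51.7 to 57.5 TPM, led by Cdh1 (23.3 ± 1.02), Scgb1a1 (15.3 ± 0.98) and Sftpc (9.40 ± 1.81). Krt18 was also detected. The other 3 epithelial markers were not detected, namely Epcam (0.94 ± 0.315), Krt8 (0.24 ± 0.12) and Foxj1 (0.15 ± 0.026). The 7 fibroblast and smooth muscle markers summed to 4.54 to 5.34 TPM, of which Pdgfrb made up 4.44 ± 0.290. The other 6, among them Col1a1, Col1a2 and Acta2, were below 1 TPM in all libraries. The part of such cells in the Jag1 level was not tested.

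Genes that modify the receptor or the ligand were present. All 5 receptor glycosylation genes were detected, where 67.3% of all listed genes were. The fringe genes Mfng, Lfng and Rfng, which extend O-fucose on Notch and so alter its choice of ligand, were at 108 ± 1.65, 59.0 ± 2.15 and 25.3 ± 0.753 TPM. Poglut1 and Pofut1, which add O-glucose and O-fucose, were at 35.8 ± 0.702 and 23.5 ± 1.72 TPM. Of the ubiquitin ligases that drive ligand endocytosis 3 of 4 were detected, namely Mib1 (40.1 ± 0.635), Mib2 (13.0 ± 0.650) and Neurl1b (2.59 ± 0.139), while Neurl1a had 3, 0 and 3 estimated reads.

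Lymphocyte genes known to respond to Notch gave mixed levels, and each has other regulators as well. Of 9 such genes 6 were detected, which is near the 67.3% of all listed genes. Gata3, the factor that defines the ILC2 lineage, was at 256 ± 4.999 TPM, Il2ra at 102 ± 2.56, Tcf7 at 67.0 ± 1.15, Myc at 33.8 ± 1.19, the feedback inhibitor gene Nrarp at 19.0 ± 0.351 and Ccr7 at 6.15 ± 0.639. Dtx1 and Notch3 were below 1 TPM in all libraries. Ptcra, named after its value was seen, was at 1.27, 0.98 and 1.54 TPM.

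**Figure D5:**
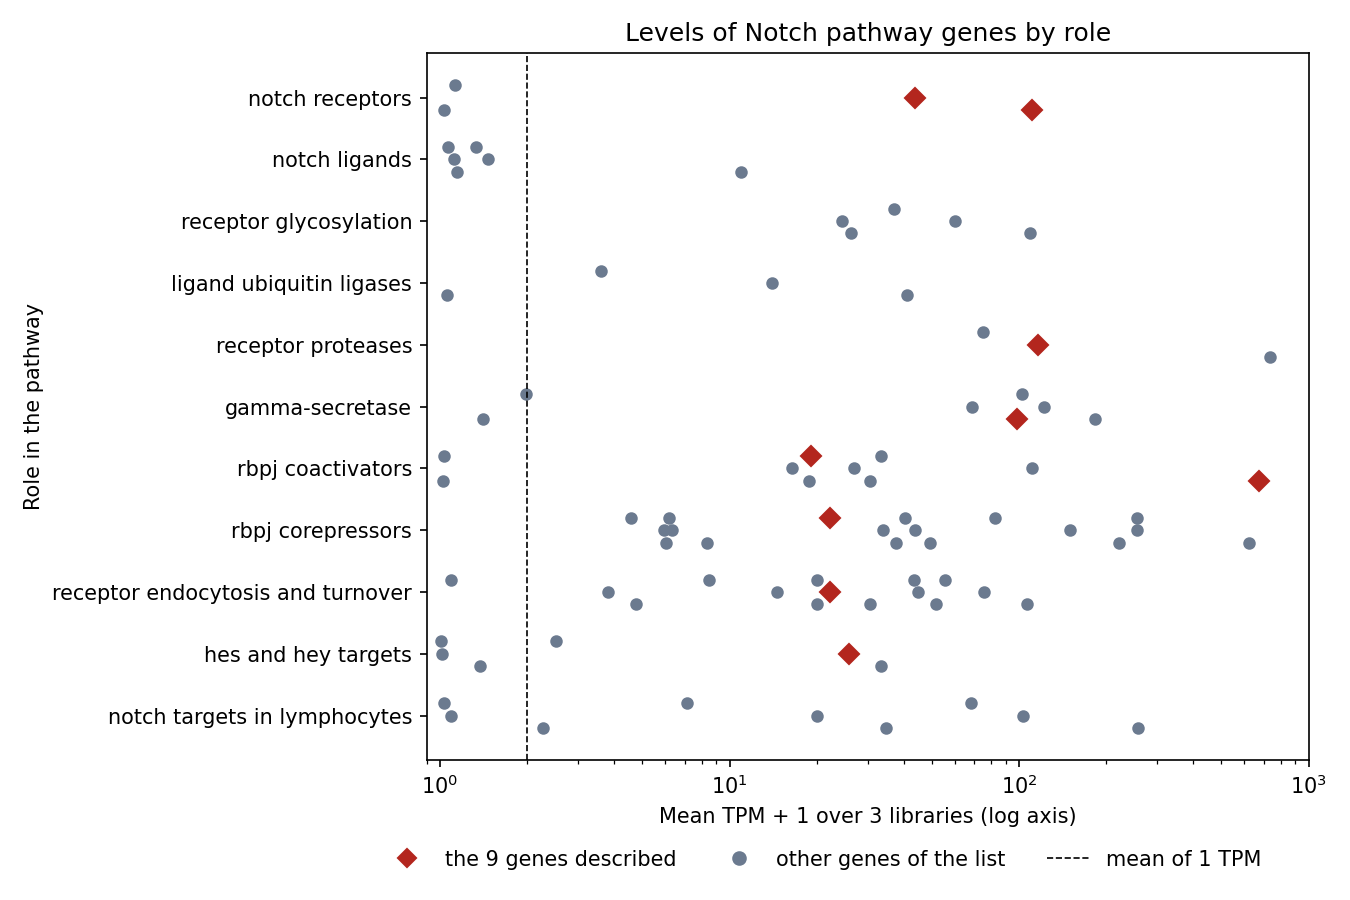
Each point is the mean over 3 libraries of TPM + 1 (log axis) of a gene, arranged by role, with diamonds for the 9 genes and circles for the others, and genes of several roles drawn in each. Ligands lie left of the dashed line at a mean of 1 TPM except Jag1 at 9.95 TPM, while Furin (732 TPM), Rbpj (673 TPM) and Tle5 (619 TPM) lie farthest to the right.

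The label of the cells was compared with marker genes. All 12 ILC2 markers were detected, with means of at least 100 TPM, led by Id2 (1526 ± 41.1), Il1rl1 (1064 ± 33.2) and Il13 (972 ± 52.9). Among all listed genes, 67.3% were detected and 10.3% had such a mean. The 7 T cell markers summed to 9.77 to 14.3 TPM, led by Cd3e (7.19 ± 1.57), Cd3d and Cd28. The other 4 were not detected, namely Cd8a (0.81 ± 0.320), Cd8b1 (0.227 ± 0.260), Cd5 (0.107 ± 0.055) and Cd4 (0.053 ± 0.021). The 5 B cell markers summed to 1.84 to 2.80 TPM, and none was detected. The 7 listed macrophage markers summed to 50.3, 53.2 and 69.8 TPM in replicates 1 to 3, and were thus highest in replicate 3. They were led by Lyz2 (39.1 ± 6.98), C1qb and Cd68, and Adgre1 (0.653 ± 0.221) was the only listed one not detected. Of the 5 listed dendritic cell markers 2 were detected, Xcr1 (11.7 ± 1.33) and Zbtb46 (1.87 ± 0.017), and the summed level was 12.8 to 15.5 TPM. Flt3, Siglech and Clec9a were below 1 TPM in all libraries, with Clec9a at 1 estimated read in each. Of the 4 listed mast cell and basophil markers Kit reached 155 ± 2.40 and Cpa3 5.32 ± 0.511, and Mcpt8 and Ms4a2 were below 0.2 TPM. The part of other cells in the levels of the 9 genes was not tested.

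Genes with the most similar levels over the 3 libraries were found by the root mean square difference of log2(TPM + 1), which reflects mostly the mean level. For Notch1 these were Kat6a (0.012), Rai1 (0.019) and Med13l (0.019). For Notch2 they were Smap2 (0.015), Bnip2 (0.028) and Fam120a (0.029). For Rbpj they were Cd99 (0.031), Rpl37 (0.038) and Nfkb1 (0.039). Hes1 was nearest to Gm40453 (0.045), Cops7b (0.061) and Ptpmt1 (0.063). Each of these was also highest in replicate 1, but choosing genes by likeness to the Hes1 values favours that, so it is no separate result.

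Sequence shared with other genes limits some of these levels. Of the 50-base words in the GENCODE M21 transcripts of Rbpj, 10.6% also occur in another gene, most of them in the pseudogene Rbpj-ps3. For Notch1 the share was 9.11%, in 0610009E02Rik and Gm13568, and for Notch2 it was 3.76%, in Gm42820. None of these 4 genes was in the analysed table, so their own levels are not known here, and the sources used here do not give the strand setting of the counting. For Ncstn the share was 5.17%, and 147 of these 213 words lie in Copa, which was listed at a mean of 189.7 TPM, above Ncstn. For Numb the share was 2.92%, in Gm46367, and for Maml1 1.58%, in Gm26542, and neither of these genes was in the table. For Hes1 and Adam10 it was 0%, and for Spen 0.0708%.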

How the data were processed

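RNA from sorted lung ILC2s was sequenced in 3 libraries of 1 group. Per the submitters' processing notes, Bowtie2, RSEM 1.3.1 and the build GRCm38.p6 were used, without order or settings. Per the file headers, the authors deposited expected counts, TPM, FPKM and normalised read counts for each gene and library. The deposited expected counts are estimates that need not be whole. The deposited TPM summed to the same total in each library, and the deposited FPKM was proportional to it. The deposited normalised counts, a depth-scaled signal, were not used.

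Levels and contrasts were computed with Python 3.11.15, numpy 2.4.6 and pandas 2.3.3 from TPM, with a pseudocount of 1 for log2 values and no filter. Detection required 1 TPM in each library. Counting error was taken from rounded expected counts and covers counting only. Scripts were tested on simulated data that held counting noise only. That test kept genes above a floor of reads, which left out the pair Hes1 minus Hey1. The chi-square statistic per gene between libraries was 2.48 to 3.47, so no pair agreed within sampling noise.

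Genes, lists and contrasts were chosen with earlier results of these data known. Named genes are the 9 members, genes of the 8 contrasts and up to 6 highest members of each pathway list. Where a pathway list has genes under 1 TPM in all libraries, up to 4 of them are named in alphabetical order. The 3 nearest genes of 4 members and up to 3 highest markers of each list are also named, with some lower markers beside them. Of the genes this rule names, 1 is not reported here. Coordinates and promoter sequences are from RefSeq (GRCm38.p6) and transcripts from GENCODE M21. The symbols Aes (an older name of Tle5), Dlk2, Dner, Hes3, Hes5 and Hey2 were not in the table and were not analysed here. Alternatives were FPKM, CPM, a pseudocount of 0.1, a filter at 1 TPM, removal of ribosomal protein genes, detection at 0.5 or 5 TPM, and leaving out each library.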

Additional observations from a re-analysis of the deposited data

How the results depend on the processing

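The median log2 level of the 9 genes was 5.45 in TPM, 4.42 in FPKM, 7.06 in CPM and 5.79 without ribosomal protein genes, shifts that follow from the scale. It was 5.40 to 5.48 without each library in turn. Maml1 minus Maml2 was -0.053 in CPM and -0.010 to 0.048 without each library in turn, so its sign is not settled. Ncstn minus Psenen was 1.27 in CPM, against -0.90 in TPM. The other 6 contrasts kept their sign under the 7 settings run. Among the 75 further pathway genes 57 to 59 were detected in FPKM, in CPM or without a library, 60 at 0.5 TPM and 50 at 5 TPM. Without replicate 1 or without replicate 3, 35 of 36 pairs of the 9 genes kept their order. With 2 libraries the exact sign-flip test cannot go below p = 0.5. No paired analysis was possible because there is 1 group, so no samples of different groups could be paired. The contrasts between genes were taken within each library. Genes with few reads, such as Hey1, Aph1b and the ligands other than Jag1, are limited by depth.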
